A study of Mus musculus with 18 samples.

Results

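The citric acid cycle and the catabolism of branched-chain amino acids were followed in mouse heart through 39 genes, taken as the rows of the expression table whose symbol was on a list of enzymes of the cycle, of leucine, isoleucine and valine breakdown, of propionyl-CoA use and of ketone body use. All 39 were found among the 24341 rows, and all 39 passed the filter of at least 1 FPKM (reads per length of transcript and size of library) in at least 3 libraries, which left 12587 genes for testing. The hearts came from C57BL/6 mice aged 12 weeks that were wild type (WT) or labelled as a cardiac knockout of Med13 (cKO), which belongs to the regulatory kinase part of Mediator. Each genotype was kept on normal chow, on a diet with propylthiouracil (PTU), which blocks the synthesis of thyroid hormone, or on PTU followed by triiodothyronine (T3), the active hormone. The mice entered the diets when 8 weeks old and stayed on them for 4 weeks, and those given T3 received an injection on each of 3 days. There were 18 libraries in 6 groups of 3. The labels name neither the promoter that drives the Med13 deletion nor the part of the gene that it removes, and they do not say outright that each library is a separate animal, so that p-values measure the spread between libraries, which may in part be technical.

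The citric acid cycle is the mitochondrial pathway that oxidises acetyl-CoA and passes electrons to the respiratory chain, and in the heart it is fed mainly by fatty acids, with contributions from glucose, lactate, ketone bodies and amino acids. The branched-chain amino acids leucine, isoleucine and valine are first transaminated, then committed to oxidation by the branched-chain ketoacid dehydrogenase, and end as acetyl-CoA, acetoacetate or propionyl-CoA, the last of which enters the cycle as succinyl-CoA. Thyroid hormone acts through nuclear receptors and is known to raise mitochondrial oxidative capacity in heart muscle.

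Med13 was given by 1 value per gene. In WT hearts it stood at 5.52, 5.24 and 5.80 FPKM on chow, at 6.55, 5.57 and 6.96 on PTU and at 6.29, 5.30 and 5.61 after T3. Med13 in the hearts labelled cKO stood at 6.26, 6.34 and 5.09 FPKM on chow, at 6.05, 4.93 and 5.04 on PTU and at 6.82, 6.50 and 5.44 after T3. The genotypes overlapped, with an averaged log2 difference of -0.01 (cKO minus WT, SE 0.06, adjusted p = 1), and a gene-level value cannot show whether an exon was lost. The genotype is therefore given throughout as labelled. All 10 cardiomyocyte markers were present, with a summed level of 42091 to 83054 FPKM. Summed atrial markers ranged from 792 to 10579 FPKM and stood highest in the labelled cKO PTU replicate 2 (10579) and in WT chow replicate 3 (8407). Nppa alone made up most of these sums, at 10081 and 7637 FPKM. Other atrial markers ranked the libraries differently. Myl7 and Sln stood highest in WT PTU replicate 1 (1075 and 497) and labelled cKO PTU replicate 3 (799 and 478). In labelled cKO PTU replicate 2 they stood at 49.2 and 39.3. WT PTU+T3 replicate 2 stood apart from the other 2 libraries of its group in several lists: adipocyte markers summed to 113 FPKM against 1.67 and 3.89, and fibroblast markers to 1598 against 820.0 and 908. The same library held the highest sums of lymphocyte markers (10.03 FPKM, where the lowest library had 0.344) and of skeletal muscle markers (6.81, lowest 0.387), with Myh4 at the floor of the table in every library. In whole-heart RNA, fewer cells of a type and less RNA per cell cannot be told apart.

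The 39 genes were abundant. Together they held 1.996% to 2.56% of the summed FPKM of a library. On the FPKM scale, which is per length, the WT chow means ran from 1620.5 ± 175 for Mdh1, the cytosolic malate dehydrogenase, to 10.5 ± 2.37 for Pcx, pyruvate carboxylase (SD, n = 3). The next highest after Mdh1 were Mdh2, the mitochondrial malate dehydrogenase, at 1525 ± 199.98, Idh2, the NADP-linked mitochondrial isocitrate dehydrogenase, at 1176 ± 134, and Sdhb, the iron-sulfur subunit of succinate dehydrogenase, at 1007 ± 157. The 21 genes of the cycle and of aspartate exchange summed to 12140 ± 1663 FPKM in WT chow hearts, the 15 branched-chain and propionyl-CoA genes to 1158 ± 236 and the 3 ketone body genes to 741.6 ± 108. Levels of the genes moved together between replicates. WT chow replicate 3 was the lowest of its 3 libraries for 39 of the 39 genes, where it was the lowest for 38.6% of all genes tested. In 4 other groups 1 library was the lowest for 34 to 37 of the 39, given here with its share of all genes tested. These were WT PTU replicate 2 (34, 38.5%), WT PTU+T3 replicate 2 (35, 39.2%), labelled cKO chow replicate 3 (35, 38.3%) and labelled cKO PTU replicate 2 (37, 41.4%). Each of them, and WT chow replicate 3, also had the lowest FPKM summed over all genes in its group. From WT chow replicate 3 on, in the order named, the sums were 588893, 582154, 604539, 607097 and 551109. WT chow replicate 3 and labelled cKO PTU replicate 2 also had the smallest share of FPKM in the 39 genes, 1.996% and 2.02%. Both had the highest atrial sums of their groups, as had labelled cKO chow replicate 3, and these sums were mostly Nppa. In Myl7, another atrial marker, WT chow replicate 3 was also the highest of its group (172 FPKM against 38.1 and 21.3). Labelled cKO chow replicate 3 was the lowest in Myl7 (18.9 against 53.2 and 106). Labelled cKO PTU replicate 2 stood at 49.2, between 22.9 and 799. WT PTU+T3 replicate 2 had the lowest atrial sum of its group, 3350 FPKM against 3620 and 3716. WT PTU replicate 2 stood at 3110 FPKM, between 7442 and 1980. The part of atrial tissue in the results was not tested.

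The sequences around the transcription starts of 4 genes with the largest T3 response, and of Sucla2 and Sdhd, are shown because members moved in both directions under the same hormone. RefSeq (GRCm38.p6, the mm10 assembly) gave 45 windows for 34 of the 39 genes, each 250 bases before to 50 after a start. Both strands were searched for AGGTCA, the half-site bound by thyroid hormone receptors, for TCAAGGTCA, the site of estrogen-related receptors, which contains that half-site, for GCGCATGC, the core of NRF1 sites, and for GGGCGG, the Sp1 box. Capitals mark the matches.
Idh2 chr7:80115301-80115600 minus strand: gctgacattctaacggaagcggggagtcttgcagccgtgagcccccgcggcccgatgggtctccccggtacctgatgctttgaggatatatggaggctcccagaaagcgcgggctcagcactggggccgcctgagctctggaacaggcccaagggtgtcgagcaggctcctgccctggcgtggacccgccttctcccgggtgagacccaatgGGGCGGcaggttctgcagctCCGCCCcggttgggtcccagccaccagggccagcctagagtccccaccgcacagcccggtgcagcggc
Bckdha chr7:25658712-25659011 minus strand: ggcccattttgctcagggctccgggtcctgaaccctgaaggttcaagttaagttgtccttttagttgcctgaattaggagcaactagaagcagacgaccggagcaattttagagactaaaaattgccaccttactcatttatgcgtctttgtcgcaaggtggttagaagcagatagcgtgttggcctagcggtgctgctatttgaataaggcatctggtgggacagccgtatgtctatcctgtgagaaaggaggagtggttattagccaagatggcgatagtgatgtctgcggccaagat
Aldh6a1 chr12:84450975-84451274 minus strand: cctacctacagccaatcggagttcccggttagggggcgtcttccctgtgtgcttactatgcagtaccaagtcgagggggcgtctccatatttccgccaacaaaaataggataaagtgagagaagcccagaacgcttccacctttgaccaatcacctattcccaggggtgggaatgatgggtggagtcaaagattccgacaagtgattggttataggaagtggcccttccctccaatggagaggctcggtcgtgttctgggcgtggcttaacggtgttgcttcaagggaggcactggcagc
Suclg1 chr6:73248255-73248554 plus strand: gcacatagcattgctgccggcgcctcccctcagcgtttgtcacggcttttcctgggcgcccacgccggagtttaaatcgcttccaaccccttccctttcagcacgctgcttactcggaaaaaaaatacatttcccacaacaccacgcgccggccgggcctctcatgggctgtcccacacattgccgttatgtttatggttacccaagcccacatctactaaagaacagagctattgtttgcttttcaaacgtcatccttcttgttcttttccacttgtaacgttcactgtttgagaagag
Sucla2 chr14:73552536-73552835 plus strand: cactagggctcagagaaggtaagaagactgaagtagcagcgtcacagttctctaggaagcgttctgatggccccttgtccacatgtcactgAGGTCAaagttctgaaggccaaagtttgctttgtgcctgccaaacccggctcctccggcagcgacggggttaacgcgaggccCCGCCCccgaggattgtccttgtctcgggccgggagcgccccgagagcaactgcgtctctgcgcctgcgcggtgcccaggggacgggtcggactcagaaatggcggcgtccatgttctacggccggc
Sdhd chr9:50603800-50604099 minus strand: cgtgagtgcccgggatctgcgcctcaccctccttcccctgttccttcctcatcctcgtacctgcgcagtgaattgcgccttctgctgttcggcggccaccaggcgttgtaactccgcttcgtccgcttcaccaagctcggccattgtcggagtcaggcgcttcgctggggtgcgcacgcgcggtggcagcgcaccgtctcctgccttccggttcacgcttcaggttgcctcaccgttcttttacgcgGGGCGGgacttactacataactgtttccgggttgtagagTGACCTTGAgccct
Idh2, Bckdha and Aldh6a1 were lower and Suclg1, Sucla2 and Sdhd higher after T3 in WT hearts. The first 4 by size of change that had a window are Idh2, Suclg1, Bckdha and Aldh6a1. Sucla2 and Sdhd were added after their matches were seen. Aldh6a1 has 2 windows, of which the more upstream is shown (AGGTCA stands in the other), and the Sucla2 window lies inside the annotated gene. The half-site AGGTCA stood in 14 of the 45 windows of the gene set, for genes that were higher, lower or not called, and in 16.3% of all 32851 windows in RefSeq's table. TCAAGGTCA was found in 1 member window, that of Sdhd, and in 0.423% of all windows. GCGCATGC stood in 4 member windows (2.71% of all) and GGGCGG in 22 (35.7% of all). A direct repeat of AGGTCA with a spacer of 4 bases was in 0 member windows and in 0.0152% of all. A match describes the letters of a window and is not evidence of binding.

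In WT hearts, T3 after PTU moved the gene set in both directions and fewer of its genes were called on PTU against chow. After T3, 8 of the 39 were higher and 12 lower than on PTU (limma on log2(FPKM + 1), Benjamini-Hochberg adjusted p under 0.05 over all genes tested). That is 51.3% of the set, near the 44.1% of all genes that were called in the same comparison. On PTU against chow 4 were higher and 2 lower, 15.4% of the set against 16.8% of all genes. The median log2 change of the 39 was 0.01 after T3 and 0.03 on PTU, and the median over all genes tested was -0.00125 and -1.29e-04. The 2 comparisons share the WT PTU libraries, so their values are set side by side and not correlated. By pathway, 7 of the 21 genes of the cycle and of aspartate exchange were higher after T3 and 4 lower, whereas of the 15 branched-chain and propionyl-CoA genes 1 was higher and 8 lower. None of the 3 ketone body genes was called. Over all genes tested, the shares after T3 were 22.3% higher and 21.8% lower. Macrophage markers moved with the same comparisons in WT: 5 of 8 were lower on PTU and 7 of 8 higher after T3, with sums of 161 to 281 FPKM on chow, 82.6 to 134 on PTU and 255 to 349 after T3. Of 10 cardiomyocyte markers 3 were higher and 4 lower after T3, and of 7 smooth muscle and pericyte markers 1 was higher and 1 lower. Their part in the members' values was not tested. The PTU count went from 6 to 3 when replicate 2 of WT chow was left out, and likewise for replicate 3 of WT chow (3) and replicate 1 of WT PTU (3), and it rose to 10 with quantile normalization and 11 with sample weights. The count after T3 stayed between 16 and 20 without any 1 library of the comparison, and was 20 without WT PTU+T3 replicate 2.

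**Figure D1:**
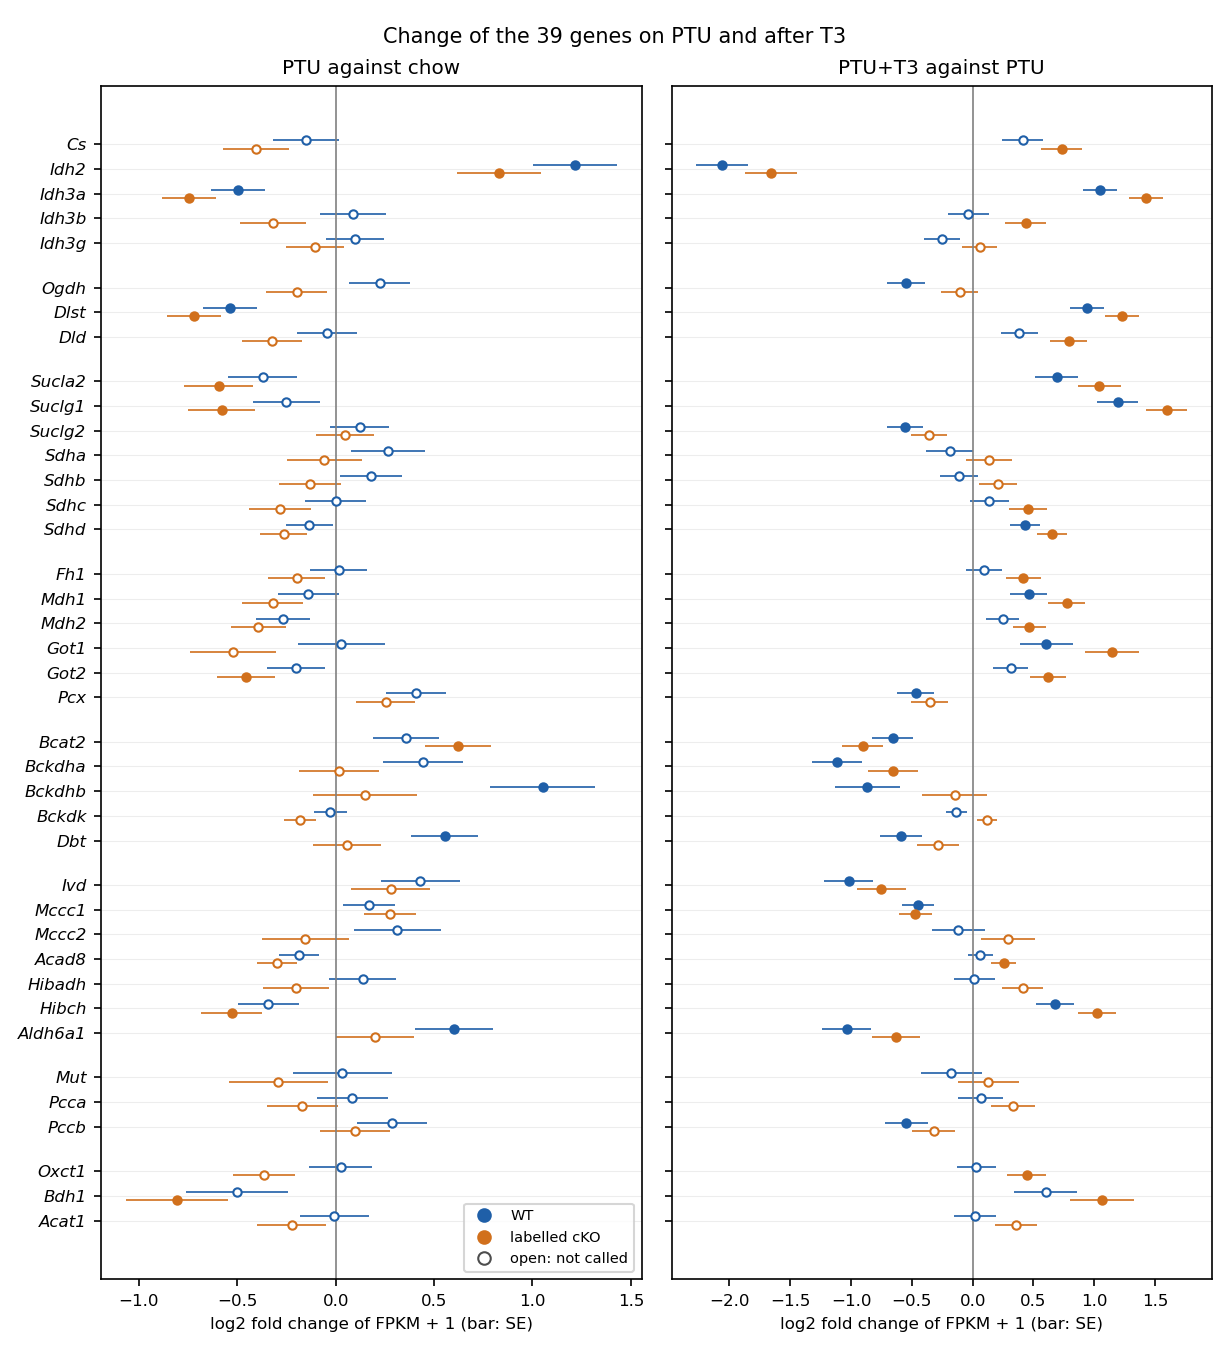
Log2 fold change of FPKM + 1 with its standard error for each of the 39 genes, on PTU against chow (left) and on PTU with T3 against PTU (right), in WT hearts (blue) and hearts labelled cKO (orange). Genes are grouped by role and filled points were called at an adjusted p under 0.05; after T3 in WT, Idh2 lies farthest to the left, at -2.06, and Suclg1 farthest to the right, at 1.19.

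The cycle begins with Cs, citrate synthase, which condenses acetyl-CoA with oxaloacetate. Isocitrate is then oxidised either by the NAD-linked enzyme made of the Idh3a, Idh3b and Idh3g subunits or by the NADP-linked Idh2. Idh2 (GRCm38 chr7:80094846-80115392, minus strand) had the largest change of the 39 genes in WT hearts. Idh2 stood at 1256, 1250.2 and 1021 FPKM in the WT hearts on chow, at 2613, 2374 and 3243 on PTU and at 727, 470.2 and 811 after T3. All 3 PTU hearts were above all chow hearts, and all T3 hearts were below both other groups. The log2 change was 1.22, SE 0.21, adjusted p = 0.00127 on PTU, and -2.06, SE 0.21, adjusted p = 1.97e-06 after T3. Idh2 in hearts labelled cKO stood at 1139, 1535 and 1160.4 FPKM on chow, 2423, 1668 and 2820.1 on PTU and 634, 764 and 741 after T3. The same order of groups held there without overlap.

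Idh3a (chr9:54586334-54604661, plus strand), which carries the catalytic site of the NAD-linked enzyme, went the other way. Idh3a stood at 351, 373 and 305 FPKM in the WT hearts on chow, at 238, 212 and 280.3 on PTU and at 501, 443 and 564 after T3. PTU hearts were all below chow and T3 hearts all above both. The log2 change was -0.50, SE 0.14, adjusted p = 0.0211 on PTU, and 1.05, SE 0.14, adjusted p = 2.09e-05 after T3. The PTU call in WT was lost without replicate 1 or 2 of WT chow or replicate 1 or 2 of WT PTU (adjusted p 0.0635 to 0.0856), each library being left out alone here and below. Idh3a in hearts labelled cKO stood at 383, 385 and 295 FPKM on chow, 209, 189 and 231 on PTU and 555, 619 and 521 after T3. The 3 groups were again separate. The partner subunits were not called in WT hearts, where the T3 change was -0.04 for Idh3b (adjusted p = 0.879) and -0.25 for Idh3g (adjusted p = 0.175), with overlapping groups. Exons of Idh3b overlap Nop56 on the other strand, and strand use in counting is not stated. Cs changed by 0.41 after T3 (adjusted p = 0.0555), which missed the threshold although the 3 T3 hearts (788, 628 and 805 FPKM) were above the 3 PTU hearts (558, 489 and 620.5).

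The ratio of Idh2 to Idh3a within a heart was chosen after these values had been seen and is given as a description. It averaged 3.43 ± 0.129 in WT chow hearts, 11.3 ± 0.297 on PTU and 1.32 ± 0.220 after T3 (SD, n = 3). In hearts labelled cKO it averaged 3.63 ± 0.570, 10.9 ± 1.78 and 1.27 ± 0.143. Over both genotypes the ratio ranged between 2.98 and 3.99 on chow, between 8.84 and 12.2 on PTU and between 1.06 and 1.45 after T3, with no overlap. The log2 spread within groups was 0.189 (pooled SD) for the ratio, against 0.285 for Idh2 alone and 0.173 for Idh3a alone.

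The oxoglutarate dehydrogenase complex has 3 parts in this set, the decarboxylase Ogdh, the succinyltransferase Dlst and Dld, the lipoamide dehydrogenase that the branched-chain and pyruvate complexes share. Dlst (chr12:85110833-85134845, plus strand) had the same order of groups as Idh3a. Dlst stood at 319.9, 354 and 268 FPKM in the WT hearts on chow, at 210.3, 192 and 245 on PTU and at 429, 357 and 458 after T3. PTU hearts lay below chow hearts and T3 hearts above both groups. The log2 change was -0.54, SE 0.14, adjusted p = 0.0141 on PTU, and 0.94, SE 0.14, adjusted p = 5.54e-05 after T3. The PTU call was lost without replicate 2 of WT chow or replicate 2 of WT PTU (adjusted p 0.0572 to 0.0641). Dlst in hearts labelled cKO stood at 340.4, 371 and 270.4 FPKM on chow, 201, 182 and 208 on PTU and 442, 498 and 448 after T3. The order of the groups was the same as in WT.

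Ogdh, in the same complex, was lower after T3 in WT hearts. Ogdh stood at 374, 399 and 289 FPKM in the WT hearts on chow, at 390.2, 376 and 470.3 on PTU and at 329, 217 and 307 after T3. The T3 hearts were all below the PTU hearts but overlapped the chow hearts. Its log2 change after T3 was -0.55, SE 0.15, adjusted p = 0.00887, lost without replicate 2 of WT PTU+T3 (adjusted p = 0.0530). Ogdh in hearts labelled cKO stood at 412, 428 and 341 FPKM on chow, 354, 323 and 348 on PTU and 296, 337 and 319 after T3. There the T3 and PTU hearts overlapped (-0.11, adjusted p = 0.599). Dld in WT hearts changed by 0.38 after T3 (adjusted p = 0.0516), from 276 ± 57.4 to 355 ± 19.4 FPKM (SD, n = 3), with overlap.

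Succinyl-CoA synthetase pairs the shared alpha subunit Suclg1 with 1 of 2 beta subunits, Sucla2, which makes the ATP-forming enzyme, or Suclg2, which makes the GTP-forming enzyme. Suclg1 (chr6:73248382-73276911, plus strand) had the largest increase after T3. Suclg1 stood at 348, 395 and 303 FPKM in the WT hearts on chow, at 304, 235 and 346 on PTU and at 624, 599 and 792 after T3. T3 hearts were above all others, and PTU hearts overlapped chow. The log2 change after T3 was 1.19, SE 0.17, adjusted p = 4.27e-05, and on PTU it was -0.25 (adjusted p = 0.335). Suclg1 in hearts labelled cKO stood at 406, 436 and 315 FPKM on chow, 246, 226 and 300.02 on PTU and 774, 867 and 691 after T3. T3 hearts were again above the rest, and PTU hearts lay below chow hearts (-0.58, adjusted p = 0.0299), a call that was lost without replicate 1 or 2 of labelled cKO chow or replicate 1 or 2 of labelled cKO PTU (adjusted p 0.0868 to 0.117).

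The beta subunits moved in opposite directions after T3. Sucla2 stood at 432, 402 and 298 FPKM in the WT hearts on chow, at 275, 237 and 365 on PTU and at 458, 421 and 524 after T3. Suclg2 stood at 105, 100.30 and 75.4 FPKM in the WT hearts on chow, at 94.3, 95.4 and 114 on PTU and at 78.8, 59.3 and 67.95 after T3. For Sucla2 every T3 heart was above every PTU heart, and for Suclg2 every T3 heart was below. The log2 change after T3 was 0.69, SE 0.17, adjusted p = 0.00466 for Sucla2, and -0.56, SE 0.15, adjusted p = 0.00638 for Suclg2. Sucla2 in hearts labelled cKO stood at 417, 429 and 321 FPKM on chow, 283, 215 and 275 on PTU and 522, 573 and 490.1 after T3. Suclg2 in hearts labelled cKO stood at 93.1, 90.9 and 91.1 FPKM on chow, 101, 79.1 and 107 on PTU and 62.3, 80.5 and 80.1 after T3. In those hearts T3 and PTU were separate for Sucla2 (1.04, adjusted p = 1.63e-04) and overlapped for Suclg2 (-0.36, adjusted p = 0.0588). The ratio of Suclg2 to Sucla2 within a heart, again chosen after the values had been seen, lay between 0.212 and 0.284 in the chow hearts of both genotypes, between 0.313 and 0.402 on PTU and between 0.119 and 0.172 after T3.

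**Figure D2:**
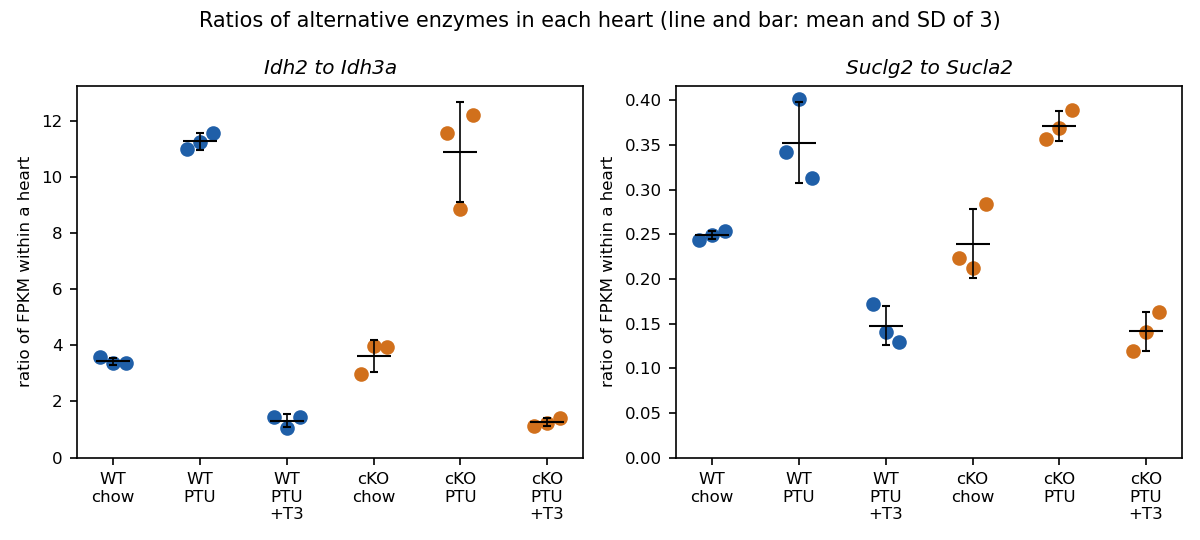
Ratio of FPKM within each heart for Idh2 to Idh3a (left) and for Suclg2 to Sucla2 (right), by group, with WT in blue and hearts labelled cKO in orange, points for libraries and a black line and bar for the mean and SD of 3. In both panels and both genotypes the PTU hearts stand above the chow hearts and the T3 hearts below them.

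Succinate dehydrogenase has 4 subunits. Sdhd, a membrane anchor, was higher after T3. Sdhd stood at 623, 687 and 591 FPKM in the WT hearts on chow, at 564, 512 and 663 on PTU and at 749, 724 and 864 after T3. T3 hearts were above PTU and chow hearts, with a log2 change against PTU of 0.43, SE 0.12, adjusted p = 0.00904. Leaving out the library highest in summed atrial markers of each group ended that call (adjusted p = 0.0880). In WT it also ended the T3 calls of Mdh1, Got1 and Pcx and the PTU calls of Bckdhb, Dbt and Aldh6a1, described below. The Idh3a call for T3 against chow ended with it too. The libraries left out were those with the highest sum, which was mostly Nppa. Picked by Myl7 they would be the same in WT chow, WT PTU and labelled cKO PTU+T3 and others in the remaining groups. In WT PTU+T3, replicate 3 was left out, with Myl7 at 279 FPKM against 487 in replicate 1. Dependence of these calls on atrial tissue was not tested. Sdhd in hearts labelled cKO stood at 658, 707 and 566 FPKM on chow, 547, 481 and 577 on PTU and 797, 908 and 817 after T3. The T3 hearts were again the highest. The other 3 subunits were not called in WT after T3. Sdha, the flavoprotein, changed by -0.19 (adjusted p = 0.440), Sdhb by -0.11 (adjusted p = 0.602) and Sdhc, the other anchor, by 0.14 (adjusted p = 0.502), each with overlapping groups.

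**Figure D3:**
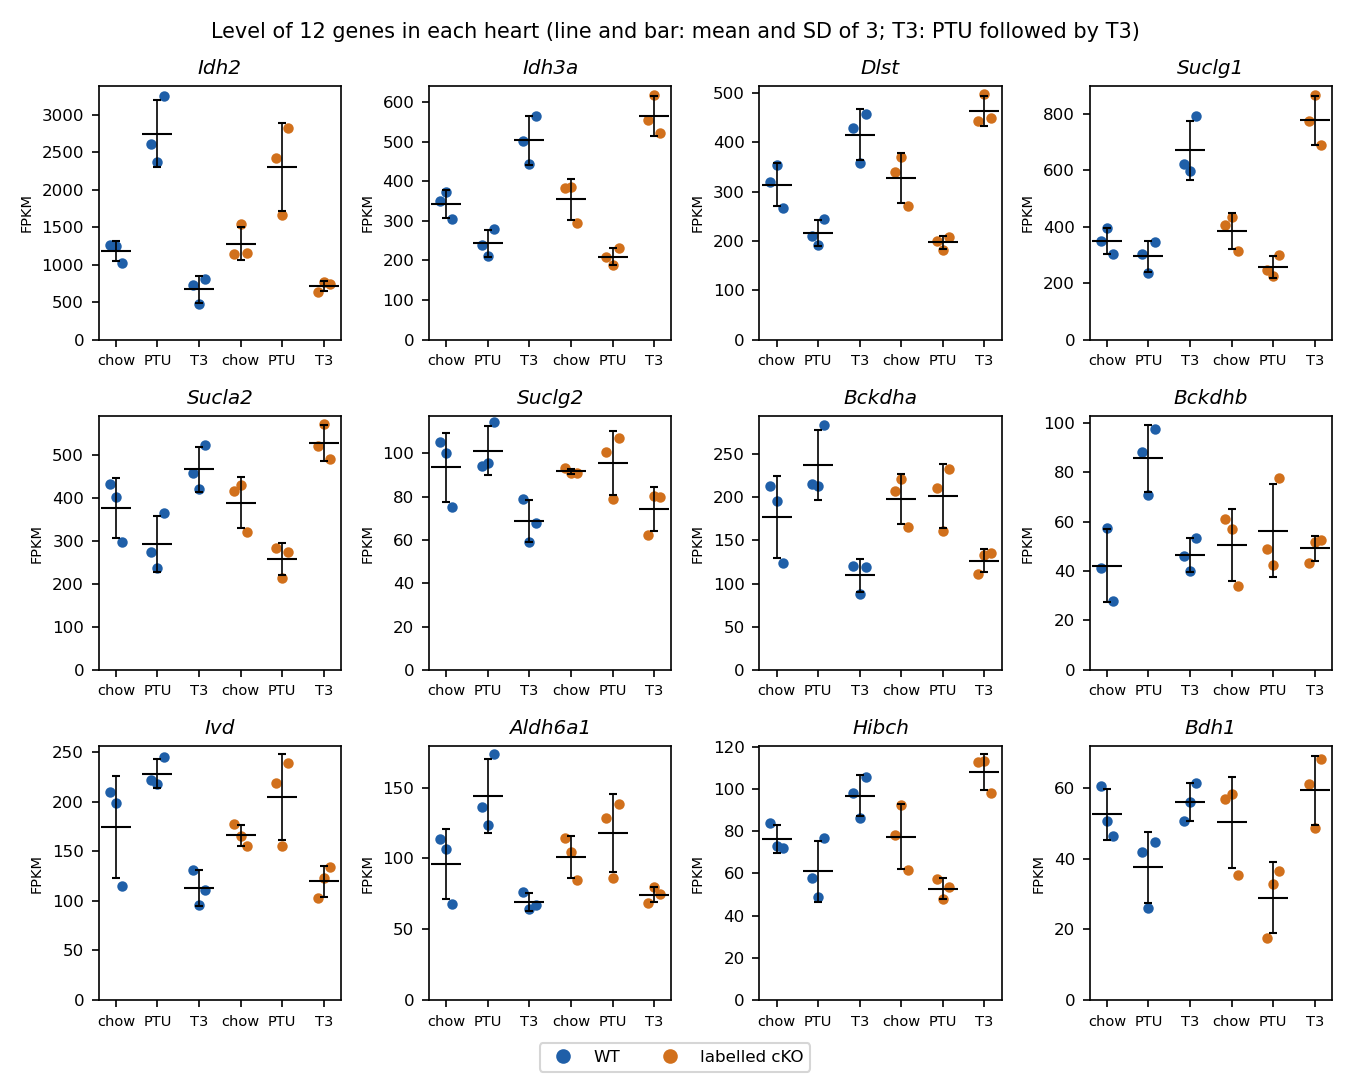
FPKM of 12 of the genes in every heart, by treatment, with WT in blue, hearts labelled cKO in orange, points for libraries, a black line and bar for the mean and SD of 3, axes from 0, and T3 standing for PTU followed by T3. Idh2, Suclg2, Bckdha, Bckdhb, Ivd and Aldh6a1 have lower WT means after T3 than on PTU, and Idh3a, Dlst, Suclg1, Sucla2, Hibch and Bdh1 have higher ones.

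Fumarate is hydrated to malate by Fh1, fumarase, which changed by 0.09 after T3 in WT (adjusted p = 0.636) and Mdh2 by 0.25 (adjusted p = 0.164). The malate-aspartate shuttle uses Mdh1 and Got1 in the cytosol and Mdh2 and Got2 in the mitochondrion, and of these the 2 cytosolic enzymes were called in WT. Mdh1 stood at 1705, 1737 and 1419.8 FPKM in the WT hearts on chow, at 1405, 1312 and 1704 on PTU and at 1976, 1869 and 2213 after T3. Got1 stood at 453, 509.7 and 349 FPKM in the WT hearts on chow, at 456, 354 and 530.3 on PTU and at 714, 535 and 789.7 after T3. T3 hearts were above PTU and chow hearts for both genes. The log2 change against PTU was 0.46, SE 0.16, adjusted p = 0.0246 for Mdh1, and 0.60, SE 0.22, adjusted p = 0.0350 for Got1. Both calls hung on single libraries: Mdh1 was lost without replicate 1 or 2 of WT PTU or replicate 3 of WT PTU+T3 (adjusted p 0.0723 to 0.0953), and Got1 without replicate 1 or 2 of WT PTU or replicate 1 or 3 of WT PTU+T3 (adjusted p 0.0636 to 0.148). Mdh1 in hearts labelled cKO stood at 1775, 1837 and 1336 FPKM on chow, 1412, 1064 and 1496 on PTU and 2201, 2421 and 2099 after T3. Got1 in hearts labelled cKO stood at 575, 627 and 367 FPKM on chow, 350.0, 296 and 431 on PTU and 824, 859.6 and 686 after T3. T3 hearts were above PTU hearts for both. Got2, the mitochondrial aspartate aminotransferase, changed by 0.31 in WT (adjusted p = 0.0959). In hearts labelled cKO both mitochondrial enzymes were called higher after T3 as well (adjusted p = 0.0111 for Mdh2 and 0.00255 for Got2). Exons of Mdh1 and Got2 overlap genes on the other strand (Wdpcp and Gm45760).

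Pcx makes oxaloacetate from pyruvate and so refills the cycle. Pcx stood at 12.5, 11.1 and 7.87 FPKM in the WT hearts on chow, at 14.5, 14.3 and 13.3 on PTU and at 9.27, 11.8 and 8.71 after T3. The PTU hearts were the highest, above chow without passing the test (0.41, adjusted p = 0.0792). The log2 change after T3 was -0.47, SE 0.15, adjusted p = 0.0204, and it was lost without replicate 1 or 2 of WT PTU or replicate 1 or 3 of WT PTU+T3 (adjusted p 0.0527 to 0.0849). Pcx in hearts labelled cKO stood at 10.7, 9.76 and 8.99 FPKM on chow, 11.3, 9.82 and 14.96 on PTU and 8.88, 8.86 and 9.45 after T3. T3 hearts were below PTU hearts there as well, with an adjusted p of 0.0675 that missed the threshold.

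Bcat2, the mitochondrial aminotransferase, removes the amino group, and the dehydrogenase built from Bckdha, Bckdhb, Dbt and the shared Dld then commits the ketoacids to oxidation. All 4 of the genes particular to these steps were lower after T3 in WT. Bckdha (chr7:25629946-25658981, minus strand), the decarboxylase alpha subunit, changed most. Bckdha stood at 214, 195 and 123 FPKM in the WT hearts on chow, at 215, 214 and 284 on PTU and at 121, 87.8 and 119.6 after T3. T3 hearts were below PTU and chow hearts, and PTU overlapped chow. The log2 change after T3 was -1.11, SE 0.20, adjusted p = 3.90e-04. Bckdha in hearts labelled cKO stood at 208, 221 and 166 FPKM on chow, 211, 161 and 232 on PTU and 111, 133 and 135 after T3. T3 hearts were the lowest there too (-0.66 against PTU, adjusted p = 0.0146), a call that was lost without replicate 3 of labelled cKO PTU or replicate 1 of labelled cKO PTU+T3 (adjusted p 0.0613 to 0.0631). An exon of Bckdha overlaps B3gnt8 on the other strand.

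Bcat2 was also lower. Bcat2 stood at 80.6, 79.5 and 57.9 FPKM in the WT hearts on chow, at 77.4, 114 and 89.1 on PTU and at 53.8, 65.5 and 55.8 after T3. T3 hearts were below PTU hearts and overlapped chow, with a log2 change of -0.66, SE 0.17, adjusted p = 0.00490. Bcat2 in hearts labelled cKO stood at 72.1, 73.8 and 60.2 FPKM on chow, 109.6, 129 and 83.9 on PTU and 59.4, 52.2 and 57.04 after T3. In those hearts PTU was above both other groups (0.62 against chow, adjusted p = 0.0203). The PTU call there was lost without replicate 1 or 3 of labelled cKO chow or replicate 1 or 2 of labelled cKO PTU (adjusted p 0.0504 to 0.0818). An exon of Bcat2 overlaps 0610005C13Rik on the other strand.

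Bckdhb, the beta subunit, and Dbt, the transacylase core, rose on PTU in WT and fell after T3. Bckdhb stood at 41.1, 57.4 and 27.9 FPKM in the WT hearts on chow, at 88.4, 70.97 and 97.5 on PTU and at 45.95, 39.9 and 53.4 after T3. Dbt stood at 29.3, 29.2 and 19.6 FPKM in the WT hearts on chow, at 38.2, 33.8 and 42.5 on PTU and at 27.1, 22.3 and 25.8 after T3. For both, the PTU hearts were above all other WT hearts, and T3 hearts overlapped chow. Bckdhb changed by 1.05, SE 0.27, adjusted p = 0.0141 on PTU, and by -0.87, SE 0.27, adjusted p = 0.0158 after T3. Dbt changed by 0.55, SE 0.17, adjusted p = 0.0373 on PTU, and by -0.59, SE 0.17, adjusted p = 0.0118 after T3. The PTU call of Bckdhb was lost without replicate 3 of WT chow or replicate 3 of WT PTU (adjusted p 0.0567 to 0.0676), and that of Dbt without replicate 3 of WT chow or replicate 1 or 3 of WT PTU (adjusted p 0.0907 to 0.171). The Dbt call also ended with no filter and with only the compared groups fitted. The T3 call of Bckdhb was lost without replicate 3 of WT PTU or replicate 2 of WT PTU+T3 (adjusted p 0.0588 to 0.0590). Bckdhb in hearts labelled cKO stood at 60.9, 56.9 and 33.9 FPKM on chow, 48.9, 42.5 and 77.8 on PTU and 43.4, 51.8 and 52.4 after T3. Dbt in hearts labelled cKO stood at 32.3, 31.3 and 24.05 FPKM on chow, 29.8, 25.1 and 36.7 on PTU and 20.4, 28.1 and 25.9 after T3. Neither gene was called on PTU or after T3 in those hearts, and the groups overlapped.

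Bckdk, the kinase that phosphorylates the dehydrogenase and turns it off, was the steadiest of the 39 genes, with a log2 spread within groups of 0.0931 (pooled SD). Its means in the 6 groups ran from 37.8 FPKM in labelled cKO hearts on PTU to 43.5 in WT hearts on chow, and its T3 change in WT was -0.13 (adjusted p = 0.207).

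Ivd, isovaleryl-CoA dehydrogenase, and Mccc1 and Mccc2, the 2 subunits of methylcrotonyl-CoA carboxylase, act on leucine. Ivd stood at 209.8, 199 and 115 FPKM in the WT hearts on chow, at 222, 218 and 245 on PTU and at 132, 96.2 and 111 after T3. PTU hearts were above chow hearts without a call (0.43, adjusted p = 0.155), and T3 hearts were below PTU hearts. The log2 change after T3 was -1.02, SE 0.20, adjusted p = 7.24e-04. Ivd in hearts labelled cKO stood at 177, 166 and 155 FPKM on chow, 219, 156 and 239 on PTU and 103, 123 and 134 after T3. T3 was the lowest group there (-0.75 against PTU, adjusted p = 0.00593). Mccc1 stood at 48.4, 56.6 and 44.9 FPKM in the WT hearts on chow, at 49.7, 61.4 and 57.7 on PTU and at 43.3, 39.8 and 39.5 after T3. T3 hearts were below PTU and chow hearts, with a log2 change against PTU of -0.45, SE 0.13, adjusted p = 0.0124, lost without replicate 2 of WT PTU (adjusted p = 0.0529). Mccc1 in hearts labelled cKO stood at 49.4, 40.4 and 50.6 FPKM on chow, 69.1, 49.6 and 52.8 on PTU and 35.4, 43.1 and 43.7 after T3. The T3 change there was -0.47 (adjusted p = 0.00846), which was lost without replicate 1 of labelled cKO PTU (adjusted p = 0.0551). Its partner Mccc2 changed by -0.12 in WT (adjusted p = 0.697).

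Valine is broken down through Acad8, isobutyryl-CoA dehydrogenase, Hibch, hydroxyisobutyryl-CoA hydrolase, Hibadh, hydroxyisobutyrate dehydrogenase, and Aldh6a1, methylmalonate semialdehyde dehydrogenase. Of these, Aldh6a1 was lower and Hibch higher after T3 in WT, and the other members were not called. Aldh6a1 stood at 114, 107 and 67.6 FPKM in the WT hearts on chow, at 136, 123 and 174 on PTU and at 76.1, 64.3 and 67.4 after T3. Hibch stood at 83.9, 72.8 and 72.3 FPKM in the WT hearts on chow, at 57.6, 48.6 and 76.6 on PTU and at 98.3, 86.4 and 106 after T3. T3 hearts were below PTU hearts for Aldh6a1 and above both PTU and chow hearts for Hibch. Aldh6a1 changed by -1.04, SE 0.20, adjusted p = 6.26e-04 after T3, and Hibch by 0.68, SE 0.16, adjusted p = 0.00233. On PTU, Aldh6a1 changed by 0.60, SE 0.20, adjusted p = 0.0494, and the call was lost without replicate 2 or 3 of WT chow or replicate 1 or 3 of WT PTU (adjusted p 0.0537 to 0.217). Aldh6a1 in hearts labelled cKO stood at 114, 105 and 84.7 FPKM on chow, 129, 86.4 and 138 on PTU and 68.8, 79.8 and 74.5 after T3. Hibch in hearts labelled cKO stood at 78.02, 92.6 and 61.9 FPKM on chow, 57.4, 47.8 and 53.3 on PTU and 113, 114 and 98.1 after T3. The opposite T3 changes held there (-0.63, adjusted p = 0.0166, and 1.02, adjusted p = 6.88e-05). The Aldh6a1 call in hearts labelled cKO was lost without replicate 1 or 3 of labelled cKO PTU or replicate 1 of labelled cKO PTU+T3 (adjusted p 0.0567 to 0.0756). In WT, Acad8 changed by 0.06 (adjusted p = 0.645) and Hibadh by 0.01 (adjusted p = 0.960). An exon of Aldh6a1 overlaps Bbof1 on the other strand.

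Propionyl-CoA, the end product of valine and isoleucine, is carboxylated by the Pcca and Pccb subunits and then rearranged to succinyl-CoA by Mut, methylmalonyl-CoA mutase. Pccb stood at 65.1, 61.8 and 41.5 FPKM in the WT hearts on chow, at 63.8, 61.6 and 78.1 on PTU and at 50.2, 36.9 and 52.1 after T3. T3 hearts were below PTU hearts and overlapped chow. The log2 change was -0.54, SE 0.18, adjusted p = 0.0214, and it was lost without replicate 3 of WT PTU or replicate 2 of WT PTU+T3 (adjusted p 0.0903 to 0.108). Pccb in hearts labelled cKO stood at 56.8, 65.8 and 49.6 FPKM on chow, 65.3, 50.1 and 69.7 on PTU and 44.6, 54.3 and 47.6 after T3. Those groups overlapped. Its partner subunit Pcca changed by 0.06 in WT (adjusted p = 0.799) and Mut by -0.18 (adjusted p = 0.598).

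Bdh1 oxidises hydroxybutyrate, Oxct1 transfers CoA to acetoacetate, and Acat1 splits the product into acetyl-CoA. None was called in WT. Bdh1 averaged 52.5 ± 7.17 FPKM on chow, 37.5 ± 10.1 on PTU and 56.1 ± 5.42 after T3 (SD, n = 3). Its PTU hearts were below both other groups without overlap, but the log2 changes of -0.50 on PTU (adjusted p = 0.200) and 0.60 after T3 (adjusted p = 0.0727) missed the threshold. Bdh1 in hearts labelled cKO stood at 56.9, 58.5 and 35.5 FPKM on chow, 17.6, 32.8 and 36.5 on PTU and 61.03, 48.8 and 68.3 after T3. The T3 hearts were above the PTU hearts there, by 1.06, SE 0.26, adjusted p = 0.00354. After T3 in WT, Oxct1 changed by 0.03 (adjusted p = 0.906) and Acat1 by 0.02 (adjusted p = 0.946). Exons of Mccc1, Mut, Pcca, Oxct1 and Bdh1 overlap genes on the other strand (Mccc1os, Cenpq, Ggact, BC037032 and Gm15743).

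T3-treated hearts were also set against chow, a comparison that shares its libraries with the others and asks how far the treated hearts lay from untreated ones. In WT, 2 of the 39 were higher and 2 lower, 10.3% of the set against 14.7% of all genes tested. Suclg1 was higher by 0.94 (log2, adjusted p = 0.00227) and Idh3a by 0.55 (0.0150). Idh2 was lower, at -0.84 (0.0159), and so was Bckdha, at -0.67 (0.0375). Suclg1 alone kept its call in every alternative tried. Idh2 lost it without replicate 1 or 2 of WT chow or replicate 2 of WT PTU+T3 (adjusted p 0.0517 to 0.0696), Idh3a without replicate 3 of WT chow or replicate 3 of WT PTU+T3 (adjusted p 0.0613 to 0.0728) and Bckdha without replicate 1 or 2 of WT chow or replicate 2 or 3 of WT PTU+T3 (adjusted p 0.0656 to 0.159). The count of 4 became 2 without replicate 1 of WT chow and 2 without replicate 3 of WT PTU+T3.

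In hearts labelled cKO the treatments gave 2 higher and 7 lower genes on PTU against chow, 23.1% of the set against 16% of all genes, and 18 higher and 6 lower after T3 against PTU, 61.5% against 46.7%. Against chow, T3-treated hearts had 7 higher and 2 lower, 23.1% against 20.9%. On PTU, Idh2 (0.83) and Bcat2 (0.62) were higher, and Idh3a (-0.75), Dlst (-0.72), Sucla2 (-0.59), Suclg1 (-0.58), Got2 (-0.45), Hibch (-0.53) and Bdh1 (-0.81) were lower, with adjusted p from 0.00220 to 0.0459. Only Idh3a and Dlst kept the PTU call whichever library was left out. The PTU count was 2 without labelled cKO chow replicate 1, 4 without chow replicate 2, 4 without PTU replicate 1 and 3 without PTU replicate 2.

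After T3 in the same hearts, 14 of the 21 genes of the cycle and of aspartate exchange were higher and 1, Idh2, was lower (-1.66, SE 0.21, adjusted p = 1.29e-05). The largest increases were Suclg1 (1.60, SE 0.17, adjusted p = 2.03e-06), Idh3a (1.43, SE 0.14, adjusted p = 8.41e-07) and Dlst (1.23, SE 0.14, adjusted p = 3.42e-06). Of the 15 branched-chain and propionyl-CoA genes 2 were higher, Hibch and Acad8, and 5 were lower, and of the ketone body genes Bdh1 and Oxct1 were higher. The shares over all genes tested were 24.9% higher and 21.8% lower, and 5 of 8 macrophage markers were higher. Genes called here but not in WT included Cs (0.73, adjusted p = 0.00194), Dld (0.79, 5.61e-04) and Got2 (0.62, 0.00255), and the difference between genotypes was not called for any of them. Of the 24 calls, 15 held whichever library was left out. Idh3b, Sdhc, Fh1, Mdh2, Bckdha, Mccc1, Acad8, Aldh6a1 and Oxct1 did not, and Idh3b and Acad8 were lost without any of 5 of the 6 libraries (adjusted p 0.0675 to 0.211 for Idh3b and 0.0637 to 0.197 for Acad8). Against chow, T3-treated hearts held their call in every alternative for Suclg1 alone (1.02, adjusted p = 7.40e-04). That count fell from 9 to 5 without labelled cKO chow replicate 1, to 4 without chow replicate 3, and to 3, 3 and 5 without PTU+T3 replicates 1, 2 and 3 in turn.

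The genotypes were compared on each treatment, averaged over treatments and by testing PTU and T3 responses for a genotype interaction, which asks whether the response to hormone loss or return differed in hearts labelled cKO. None of the 39 genes was called in any of these 6 comparisons, and limma called 0% of all genes. Of the 12587 genes tested, those at an unadjusted p under 0.05 were 209 for the averaged difference, 394 on chow, 491 on PTU and 434 after T3. There were 805 for the PTU interaction and 821 for the T3 interaction. Among the 39 this held for 0 genes averaged, on chow or after T3. It held for 1 gene in each of the others, Bckdhb on PTU and in the PTU interaction and Bckdk in the T3 interaction. Bckdhb on PTU stood at 88.4, 70.97 and 97.5 FPKM in WT and at 48.9, 42.5 and 77.8 in hearts labelled cKO, which overlap. Its log2 difference was -0.63, SE 0.27, adjusted p = 0.911 with limma. In the authors' deposited table the same difference, from 88.6 to 58.7 FPKM, has a q-value of 0.0148, and it is the 1 gene of the 39 that their 3 genotype tables list at a q-value under 0.05.

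The T3 responses leaned 1 way. For 37 of the 39 genes the T3 change was more positive in hearts labelled cKO than in WT, with a median interaction of 0.32 on the log2 scale and Bcat2 (-0.24) and Mccc1 (-0.02) as the exceptions, against a median of 0.03 over all genes tested. The PTU interaction was positive for those 2 alone, with a median of -0.25. Without WT chow replicate 3 it was positive for 6 genes, with a median of -0.13. The count was 6 after quantile normalization, 5 with sample weights and 8 without the libraries highest in summed atrial markers. Both interactions use the same PTU hearts, and the genes move together between libraries, so that the 39 signs are not 39 separate observations. FPKM summed over all genes rose more after T3 in hearts labelled cKO. It stood there at 672665, 685701 and 607097 on chow, 572676, 551109 and 643609 on PTU and 697993, 766329 and 669532 after T3. In WT it stood at 622048, 642341 and 588893, then 616748, 582154 and 691491, then 644484, 604539 and 743572. The 39 genes held a mean of 2.42% of it on PTU and 2.275% after T3 in WT. In hearts labelled cKO they held 2.275% and 2.36%. The part of these sums was not tested. Several cell type marker lists also had interactions mostly of a single sign, in different directions. In the T3 interaction cardiomyocyte markers were 9 of 10 positive (median 0.52) and erythroid markers 5 of 5 positive (median 0.74), whereas macrophage markers were 0 of 8 positive (median -0.51) and fibroblast markers 0 of 8 positive (median -0.57). In the PTU interaction the counts were 2 of 10 positive (median -0.55), 0 of 5 positive (median -1.05), 8 of 8 positive (median 0.36) and 8 of 8 positive (median 0.27) in the same order. No marker was called in either interaction, and the part of these cell types in the members' values was not tested. Labelled cKO PTU replicate 2, which was the lowest of its group for 37 of the 39 genes, bore on the size: without it the T3 median was 0.19, with 36 of 39 positive. The T3 median was 0.16 after quantile normalization, with 36 positive, and 0.23 without the library highest in summed atrial markers of each group. With libraries rescaled by median-of-ratios it was 0.29, with 37 positive.

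**Figure D4:**
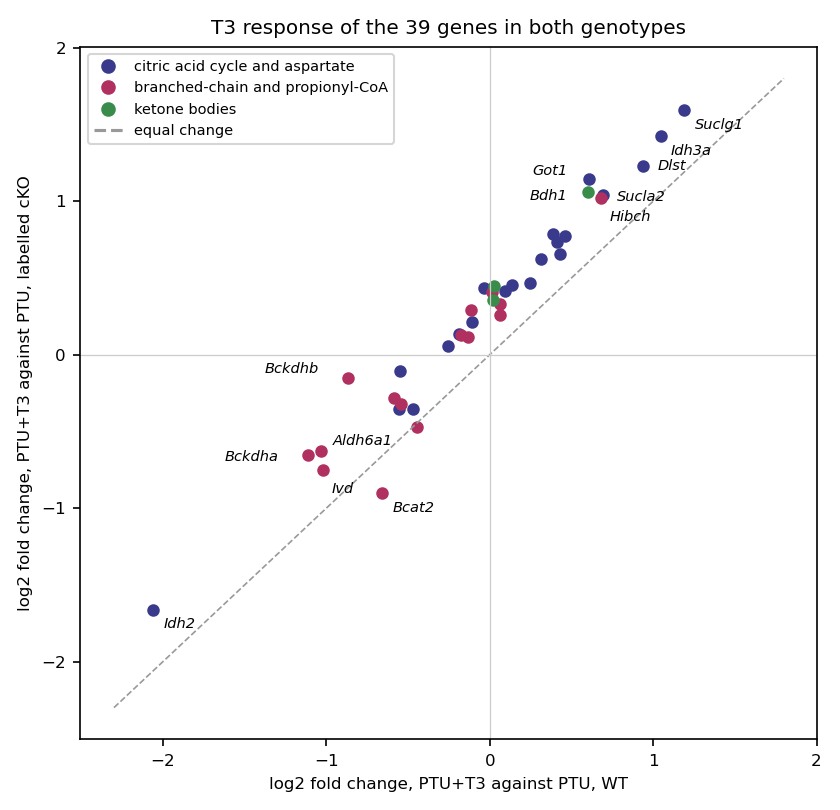
Log2 fold change after T3 against PTU for each of the 39 genes in WT hearts (horizontal) and hearts labelled cKO (vertical), coloured by pathway, with a dashed line of equal change. Points above the line had a more positive change in hearts labelled cKO, which holds for 37 genes, and no gene's difference was called.

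In the authors' deposited table for WT hearts on PTU against chow, 5 of the 39 genes were higher and 3 lower at a q-value under 0.05, where limma called 4 and 2. In the authors' deposited table for T3 against PTU 8 were higher and 11 lower, where limma called 8 and 12. For T3 against chow the authors' deposited table had 3 higher and 5 lower, 8 genes against the 4 that limma called (2 and 2), with Got1, Suclg2, Ivd and Aldh6a1 added. In the authors' deposited table for T3 against PTU, Bdh1 went from 37.6 to 56.2 FPKM with a q-value of 0.00142, where limma gave no call, while Ogdh and Mdh1 were not listed under the threshold.

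Neighbouring genes of the pathways were read from lists that had been chosen with earlier results of these data known. Of 26 related cycle genes, among them the pyruvate dehydrogenase complex and its regulators, 14 were higher and 4 lower after T3 in WT, and 2 were higher and 9 lower on PTU. Over all genes tested the shares were 22.3% higher and 21.8% lower after T3, and 8.02% higher and 8.76% lower on PTU. Pdk4, a kinase that turns pyruvate dehydrogenase off, changed most after T3, by 2.45 (log2, adjusted p = 4.61e-04). It was followed by Pdp2, a phosphatase that turns the enzyme on (1.92, 4.10e-06), by Idh1, the cytosolic NADP-linked isocitrate dehydrogenase (1.56, 5.48e-07), and by Pdhb, a subunit of the enzyme itself (1.32, 1.62e-05). Idh1 thus moved opposite to its mitochondrial counterpart Idh2, from 19.4 ± 3.25 FPKM on PTU to 59.2 ± 9.47 after T3.

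Of the 11 listed shuttle and glutamate genes 10 were tested, and 5 were higher and 1 lower after T3 in WT, to be read against the 22.3% higher and 21.8% lower of all genes. Gpt2, mitochondrial alanine aminotransferase, changed by 2.24 (adjusted p = 2.10e-07), Slc25a22, a glutamate carrier, by 1.56 (2.37e-06) and Gpt, the cytosolic alanine aminotransferase, by 1.03 (0.00136). Glul, glutamine synthetase, was the 1 that was lower, at -1.57 (1.64e-06). Of the 20 listed branched-chain genes 19 were tested, and 4 were higher and 8 lower, in the same comparison with 22.3% higher and 21.8% lower over all genes. Ppm1k, the phosphatase that activates the branched-chain dehydrogenase, changed by -2.02 (adjusted p = 9.04e-06), from 52.4 ± 11.1 FPKM on PTU to 12.1 ± 2.67 after T3 (SD, n = 3), whereas its opponent Bckdk was not called. Klf15, a transcription factor known to control branched-chain catabolism, changed by -1.52 (1.69e-04), Acadsb, which acts on isoleucine, by -1.09 (9.91e-05) and Hsd17b10, further along the isoleucine pathway, by -0.89 (0.00112). Of the 8 listed ketone body genes 5 were tested, of which 2 were higher and 1 lower. Slc16a7, a monocarboxylate transporter, was lower (-1.19, 2.75e-04), and Acat2 (0.67, 0.00359) and Slc16a1, another transporter (0.48, 0.00597), were higher. Acat2 stood at 7.44 FPKM in WT PTU+T3 replicate 2, the library that stood apart in several marker lists, and at 4.32 and 4.58 in replicates 1 and 3.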

How the data were processed

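RNA was taken from hearts with Trizol and made into polyA-selected TruSeq V2 libraries, per the labels' protocols. The authors deposited FPKM per gene and library, with Bowtie2, Cufflinks and mm10 named in the submitters' processing notes; the annotation and the use of strand are not given in the sources used here. FPKM keeps no read totals, so the depth is unknown and no counting error can be given. The authors' deposited comparison tables add a p-value and a q-value per gene. The FPKM columns were matched to samples by the sample titles, and the columns of the authors' comparisons to groups by the group names deposited with them.

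Testing used limma 3.58.1 in R 4.3.3 on log2(FPKM + 1), which understates changes of low genes, for the genes that reached 1 FPKM in 3 or more libraries. A single model of 6 groups (12 residual degrees of freedom, trended and robust variance) gave 12 comparisons, with p-values adjusted by Benjamini-Hochberg over all genes tested and a threshold of 0.05. All adjusted p given without another name come from this model. The table holds failed estimates in 5 cells of 2 genes, which were left out, 27 symbols turned into dates and a lowest value of 0.01 FPKM. The members and the lists of related and marker genes were chosen with earlier results of these data known. By rule, up to 4 members in a role that were called on PTU or after T3 in WT hearts, in order of their p for T3, were given in every library, and up to 4 called genes of each related list with the largest T3 change were named. Promoters were printed for the 4 largest called T3 changes that had a window. Bdh1 values per library, Sucla2, Sdhd and the ratios were added after values were seen. Windows were searched by exact match. The procedure was tested on simulated data. Alternatives changed the pseudocount, the filter, the scaling, the variance model, the sample weights and the libraries used. RefSeq windows came from GRCm38.p6.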

Additional observations from a re-analysis of the deposited data

How the results depend on the processing

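Of the genes called, 1 of 6 on PTU in WT hearts kept its call in every alternative, as did 12 of 20 after T3 against PTU and 1 of 4 after T3 against chow. In hearts labelled cKO 2 of 9, 15 of 24 and 1 of 9 did, and 0 values changed sign. On PTU in WT, quantile normalization gave 10 calls and sample weights 11. Leaving out the library highest in summed atrial markers of each group, mostly Nppa, gave 3, and leaving out single libraries 3 to 6. After T3 against chow in WT, quantile normalization gave 9 and sample weights 8, with 2 to 6 without single libraries. On PTU in hearts labelled cKO, no filter gave 5 and fitting the compared groups alone 2. Leaving out the libraries highest in summed atrial markers gave 5, and leaving out single libraries 2 to 12. After T3 against chow there, no filter gave 5 and sample weights 14. Leaving out the libraries highest in summed atrial markers gave 4, and leaving out single libraries 3 to 8. The cause of these shifts was not tested. Genotype and interaction comparisons gave 0 calls among the 39 genes in every alternative. Fitting only the compared groups was not run for the averaged genotype difference, which uses all groups. No paired analysis was possible because the labels give the groups no shared replicate numbers. The unknown depth and 3 libraries per group limit the precision.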
